A study of Homo sapiens with 7 samples.

Results

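A transcript cluster of the Human Exon 1.0 ST array is a set of short probes that the array's design takes as 1 transcribed region. The clusters described here are those whose gene-symbol entry lists at least 2 symbols, so that their value cannot be given to 1 gene. They were taken from the value table by that entry alone, without use of the measured values, and they made up 2408 of 22011 clusters. Another 14432 clusters carried 1 symbol and 5171 carried none.

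The study compared DU145 cells, an androgen-independent human prostate carcinoma line derived from a brain metastasis, with CSC, the CD44+CD24- cells sorted from the same line. Total RNA of 3 DU145 and 4 CSC samples was hybridized, each to its own array. No gene was altered and no drug was given in either group. By the study's methods, CSC grew as floating spheroids in serum-free medium with EGF, bFGF and insulin and groups of spheroids were pooled for RNA, whereas bulk DU145 cells were kept with FBS. The sample labels differ from this account: beside the sort, they give RPMI medium with FBS for every sample and say nothing of spheroids. Which culture the CSC arrays stem from is therefore not settled here. By the methods' account, sorting, medium, serum and attachment cannot be told apart in this comparison. Whether arrays within a group stem from independent cultures is not stated anywhere used here, so the p-values measure the spread between these arrays, which may be technical. All values are deposited log2 expression values, given in the order of arrays 1 to 3 for DU145 cells and 1 to 4 for CSC, and all differences are CSC minus DU145 on that scale.

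Genes come to share a probe set for several reasons. Gene families that arose by duplication keep long stretches of near-identical sequence, so a probe for 1 copy also binds the RNA of another. Genes on opposite strands can overlap at their ends, small RNAs lie inside the introns and exons of host genes, and readthrough transcripts join the exons of neighbouring genes. A cluster may also carry the symbol of a gene elsewhere in the genome, because a processed copy of that gene lies inside it. For each of these, the single value per cluster read here can be a sum or mixture, and it does not resolve the parts.

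Sequences are shown for some of the genes and microRNAs that the clusters described below name together, to show how alike these stretches are, and no difference or call rests on them. Of the 4575 symbols in these clusters, 3087 had a promoter window in RefSeq (GRCh38.p14, 250 bases before to 50 after the start), and of 134 microRNA symbols 126 had an entry. The genome build of the array's design is not given in the sources used here, so the windows were not placed against the probes. The first 3 are the windows of the genes named together in the cluster with the largest difference, at chr19:41755280-41755579, chr19:41708376-41708675 and chr19:41796337-41796636, all on the plus strand. Capitals mark the longest run common to all 3, which has 15 bases.
CEACAM6: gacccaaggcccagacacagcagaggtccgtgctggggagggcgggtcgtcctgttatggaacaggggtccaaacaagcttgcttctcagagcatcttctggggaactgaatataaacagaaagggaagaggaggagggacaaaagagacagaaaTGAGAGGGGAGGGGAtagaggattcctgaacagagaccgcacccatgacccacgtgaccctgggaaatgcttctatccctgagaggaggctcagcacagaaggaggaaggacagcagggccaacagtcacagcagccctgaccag
CEACAM5: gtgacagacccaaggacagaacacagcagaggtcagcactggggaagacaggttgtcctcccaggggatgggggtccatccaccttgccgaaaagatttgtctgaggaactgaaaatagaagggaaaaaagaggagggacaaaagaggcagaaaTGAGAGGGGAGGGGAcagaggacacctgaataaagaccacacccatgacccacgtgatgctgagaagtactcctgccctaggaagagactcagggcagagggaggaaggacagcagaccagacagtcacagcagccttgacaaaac
CEACAM3: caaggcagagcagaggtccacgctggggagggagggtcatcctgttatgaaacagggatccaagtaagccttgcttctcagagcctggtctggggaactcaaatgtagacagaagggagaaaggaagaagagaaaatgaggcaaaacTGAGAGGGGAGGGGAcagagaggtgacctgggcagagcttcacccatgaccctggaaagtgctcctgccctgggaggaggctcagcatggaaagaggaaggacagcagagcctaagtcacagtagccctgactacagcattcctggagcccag
In a global alignment, 75.9% of columns were identical between CEACAM6 and CEACAM5, 73.1% between CEACAM6 and CEACAM3 and 64.2% between CEACAM5 and CEACAM3.

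AKR1C1 and AKR1C2 are named together in 2 clusters with large differences, and their windows are closer still. Their windows at chr10:4963165-4963464 on the plus strand and chr10:5003808-5004107 on the minus strand were identical in 93.5% of aligned columns. Capitals mark the longest shared run of 245 bases.
AKR1C1: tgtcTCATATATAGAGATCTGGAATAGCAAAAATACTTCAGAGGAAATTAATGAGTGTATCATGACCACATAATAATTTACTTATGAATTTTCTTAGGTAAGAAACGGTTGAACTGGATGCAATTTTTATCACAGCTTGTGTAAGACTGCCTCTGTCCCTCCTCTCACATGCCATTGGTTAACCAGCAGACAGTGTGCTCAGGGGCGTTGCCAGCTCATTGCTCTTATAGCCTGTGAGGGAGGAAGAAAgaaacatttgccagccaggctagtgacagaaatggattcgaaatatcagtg
AKR1C2: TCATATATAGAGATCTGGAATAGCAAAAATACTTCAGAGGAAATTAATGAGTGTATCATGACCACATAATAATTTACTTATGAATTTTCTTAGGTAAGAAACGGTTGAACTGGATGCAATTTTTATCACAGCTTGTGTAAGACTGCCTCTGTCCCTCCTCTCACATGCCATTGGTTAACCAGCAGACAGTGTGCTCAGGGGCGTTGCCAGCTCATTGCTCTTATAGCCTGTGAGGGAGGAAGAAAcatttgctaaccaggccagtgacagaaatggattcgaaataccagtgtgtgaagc

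Mature microRNAs are shown for the host-gene clusters described below, with the seed (bases 2 to 8), through which a microRNA pairs with its targets, in capitals.
hsa-miR-503-5p: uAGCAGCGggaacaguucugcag
hsa-miR-15a-5p: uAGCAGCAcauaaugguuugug
hsa-miR-15b-5p: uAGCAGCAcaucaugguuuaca
hsa-miR-16-5p: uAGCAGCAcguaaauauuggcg
hsa-miR-147b-3p: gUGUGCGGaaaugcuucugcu
The seeds of miR-15a, miR-15b and miR-16 were the same, and that of miR-503 shared all but its last base. Among the mature microRNAs of all matched symbols, 5 began with these bases at positions 2 to 7, and they come from MIR15A, MIR15B, MIR16-1, MIR16-2 and MIR503. The seed of miR-147b was unlike them.

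A cluster was called when its adjusted p in the limma fit over all 22011 clusters was at most 0.05 and its absolute log2 difference at least 1. Of the clusters naming several genes, 14 were called, which is 0.581%, against 1.3% of all clusters. Of these, 9 were higher in CSC and 5 lower, against 159 (0.722%) and 127 (0.577%) of all clusters. Without the limit on fold, 39 passed, or 1.62%, with 28 higher and 11 lower, against 2.04% of all clusters. The groups did not overlap in 371 clusters, or 15.4%, against 3726, or 16.9%, of all clusters. Of the 371, 294 were higher in CSC and 77 lower, against 2377 and 1349 of the 3726. Clusters with 1 symbol were likewise mostly higher, 1829 against 553 lower, and those without a symbol mostly lower, 719 against 254 higher. The median over all clusters was 5.774 to 5.89 on the DU145 arrays and 5.885 to 5.913 on the CSC arrays. The median difference was 0.11 over these clusters and 0.08 over all, and the median level was 5.82 and 5.85. The shares called, past the p-value limit and without overlap (0.581%, 1.62% and 15.4%) were each below those of the whole array. By direction this did not hold throughout. Separate groups higher in CSC made up 294 of 2408 clusters against 2377 of 22011, a larger share.

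**Figure D1:**
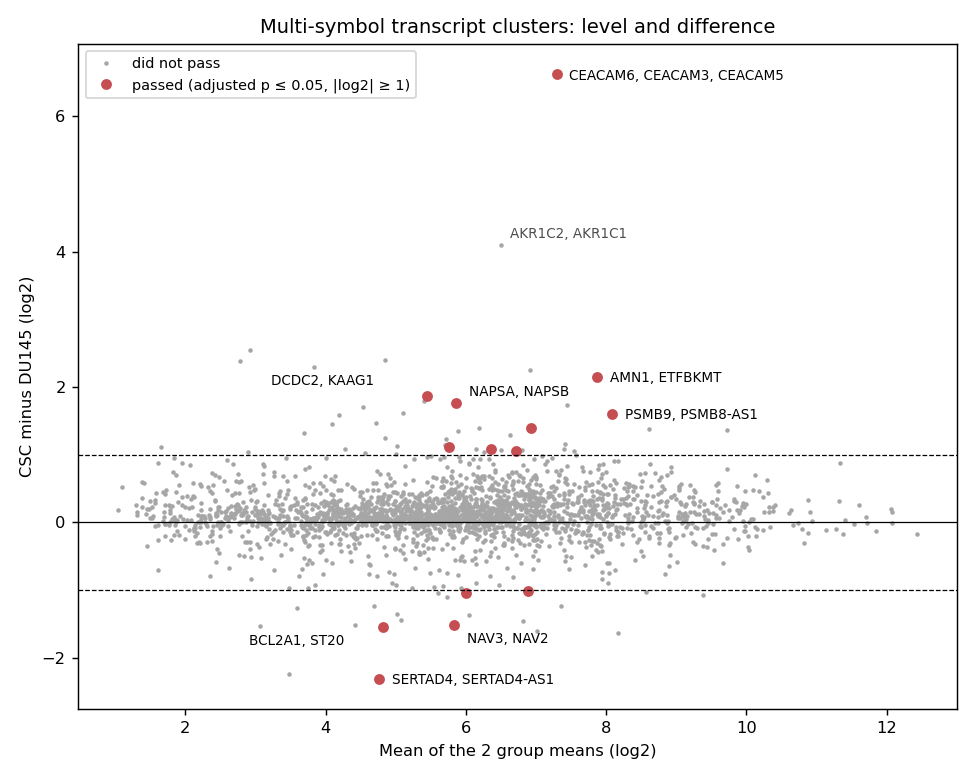
Each point is 1 of 2384 clusters that name several genes (those with a Y-linked symbol or XIST are left out), with the mean of the DU145 and CSC group means on the x axis (log2) and CSC minus DU145 on the y axis (log2). Dashed lines mark differences of 1 and -1, and the 14 called clusters are red. The CEACAM cluster stands at 6.62, and AKR1C2, AKR1C1, at 4.10, was not called.

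Over these clusters, arrays of 1 group correlated at r = 0.978 to 0.982 in DU145 cells and 0.967 to 0.978 in CSC, and arrays of different groups at 0.960 to 0.966. Epithelial markers with clusters of their own were measured in both groups: the mean of 5 (KRT8, KRT18, KRT19, EPCAM and CDH1) ran from 7.90 to 8.30 over the DU145 arrays and from 9.19 to 9.58 over the CSC arrays, and 2 of the 5, EPCAM and CDH1, were called higher. None of the 7 fibroblast, 4 leukocyte, 1 erythroid, 2 prostate luminal and 3 neuroendocrine markers was called. VIM, vimentin, was lower by value on all CSC arrays, at 10.16 ± 0.20 (SD, n = 4) against 10.75 ± 0.32 (SD, n = 3, adjusted p = 0.1568). The other fibroblast markers differed by 0.04 to 0.18. ENO2 was higher by value on all CSC arrays (0.78, SE 0.14, adjusted p = 0.05509), while CHGA and SYP differed by 0.11 and 0.245 with overlapping groups. The leukocyte mean ran from 3.88 to 4.07 over the DU145 arrays and from 4.34 to 5.22 over the CSC arrays, with the largest difference in LYZ, lysozyme (2.66 ± 0.11 in DU145 cells and 4.18 ± 1.20 in CSC, SD, n = 3 and n = 4, adjusted p = 0.2524). KLK3 and TMPRSS2, markers of prostate luminal cells, stood at 4.95 ± 0.01 (SD, n = 3) and 3.68 ± 0.05 (SD, n = 3) in DU145 cells. Of the sort markers, CD44 averaged 8.93 ± 0.41 on the DU145 arrays (SD, n = 3) against 7.75 ± 0.52 on the CSC arrays (SD, n = 4), lower by value on all 4 although these cells were sorted as CD44+ (adjusted p = 0.1282). CD24, the marker the sorted cells lacked, averaged 8.93 ± 0.36 against 8.54 ± 0.42 (SD, same n) with overlapping groups (adjusted p = 0.4494). On these arrays, the RNA of neither sort marker passed the test. The paper's own Q-PCR found CD24 mRNA significantly lower in spheroids than in DU145 cells, and CD44 mRNA alike in both. Each marker was read here from the brightest cluster that carried its symbol alone.

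The largest difference belonged to the cluster of CEACAM6, CEACAM3 and CEACAM5, cell adhesion glycoproteins of the carcinoembryonic antigen family, of which CEACAM5 is carcinoembryonic antigen itself and CEACAM3 is a receptor of granulocytes. It read 3.75, 3.87 and 4.33 in DU145 cells against 10.11, 10.78, 10.86 and 10.67 in CSC. All CSC arrays stood far above all DU145 arrays. The mean was 3.98 ± 0.31 (SD, n = 3) for DU145 and 10.61 ± 0.34 (SD, n = 4) for CSC, a difference of 6.62 (SE 0.23, adjusted p = 0.000214), or 98.5-fold. It was the only called cluster of the 14 that stayed called with any of the 7 arrays left out, with differences of 6.504 to 6.795.

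CEACAM5 and CEACAM3 also had clusters of their own, in which they are the only symbol, while CEACAM6 had none. The CEACAM5 cluster read 3.598, 4.06 and 4.14 in DU145 cells against 9.34, 7.74, 7.99 and 7.0 in CSC. Its CSC arrays were all above the DU145 arrays and spread more than in the shared cluster, with array 1 highest where the shared cluster has array 1 lowest. The difference was 4.08 (SE 0.53, adjusted p = 0.02454). The CEACAM3 cluster read 6.14, 6.04 and 5.98 in DU145 cells against 6.17, 6.11, 6.28 and 5.64 in CSC, with overlapping groups and a difference of -0.01 (SE 0.16, adjusted p = 0.9927). The shared cluster and the cluster of CEACAM5 were thus both higher in CSC, and that of CEACAM3 was not called.

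AMN1 and ETFBKMT overlap, AMN1 being named after a yeast antagonist of mitotic exit and ETFBKMT encoding a methyltransferase of a mitochondrial electron carrier. Their cluster read 6.95, 6.22 and 7.23 in DU145 cells against 8.54, 9.23, 8.82 and 9.21 in CSC. Every CSC array was above every DU145 array, and DU145 array 2 was lowest. The difference was 2.15 (SE 0.29, adjusted p = 0.02632). A second cluster with the same symbols had a difference of 0.50, at a mean level of 4.44 over all arrays against 8.03 in this one. The call held in 1 of 7 fits with an array left out, the one without CSC array 1, and the differences were 1.86 to 2.37.

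DCDC2, a microtubule-binding doublecortin-domain protein, and KAAG1, a tumor antigen read from overlapping DNA, shared a cluster at 4.65, 4.66 and 4.22 in DU145 cells against 5.997, 6.65, 5.89 and 6.96 in CSC. The groups were well apart, with CSC arrays 2 and 4 above CSC arrays 1 and 3. The difference was 1.87 (SE 0.29, adjusted p = 0.03826), and the call was lost whichever array was left out, at differences of 1.67 to 2.03. A second cluster of DCDC2 and KAAG1 had a difference of 0.33.

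NAPSA, the aspartic protease napsin A of lung and kidney, and its neighbouring pseudogene NAPSB shared a cluster at 4.76, 5.38 and 4.82 in DU145 cells against 6.74, 6.96, 6.69 and 6.57 in CSC. The CSC arrays lay close together and above all DU145 arrays. The difference was 1.76 (SE 0.18, adjusted p = 0.01229), or 3.38-fold, and it stayed called except without DU145 array 1 (1.65).

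PSMB9, a catalytic subunit of the immunoproteasome that cuts peptides for MHC class I, was listed with PSMB8-AS1, an antisense RNA of the neighbouring subunit gene. The cluster read 7.37, 7.57 and 6.91 in DU145 cells against 8.37, 9.16, 8.79 and 9.24 in CSC. All CSC arrays were higher, array 1 the least. The difference was 1.61 (SE 0.26, adjusted p = 0.03967), and among the fits with an array left out only the one without CSC array 1 (1.78) kept the call, over differences of 1.42 to 1.78.

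TSPYL2, a nuclear protein that binds chromatin regulators and slows growth when overexpressed, was listed with its neighbour GPR173, an orphan receptor. The cluster read 6.04, 6.16 and 6.51 in DU145 cells against 7.71, 7.62, 7.64 and 7.53 in CSC. The CSC arrays were nearly equal and all above the DU145 arrays. The difference was 1.39 (SE 0.12, adjusted p = 0.008891), lost as a call only without DU145 array 2 (1.35). GPR173 had its own cluster at 5.25, 5.26 and 5.44 in DU145 cells against 4.86, 4.70, 5.22 and 5.03 in CSC, which was lower in CSC by value, with a difference of -0.36 (SE 0.14, adjusted p = 0.2213).

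NFKBIZ encodes IκBζ, a nuclear regulator of NF-κB target genes, and overlaps in the gene table with NXPE3, a neurexophilin-like gene. Their cluster read 4.94, 5.31 and 5.35 in DU145 cells against 6.39, 6.22, 6.21 and 6.43 in CSC. The groups were separate and the CSC arrays tight. The difference was 1.12 (SE 0.13, adjusted p = 0.01717), and 4 of 7 fits with an array left out kept the call, those without CSC array 1, 3 or 4 or DU145 array 3, over differences of 0.98 to 1.19. NXPE3 alone read 5.89, 6.27 and 6.26 in DU145 cells against 5.45, 6.26, 6.39 and 6.74 in CSC, with overlapping groups and a difference of 0.07.

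GABARAPL1, an ATG8-family protein of autophagosomes, was listed with GABARAPL3, a copy on another chromosome. The values were 5.59, 5.82 and 6.02 in DU145 cells against 6.98, 6.701, 6.77 and 7.16 in CSC. Every CSC array was higher. The difference was 1.09 (SE 0.15, adjusted p = 0.02794), kept as a call only without CSC array 4 (1.004), over differences of 0.98 to 1.19.

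LHB, the beta chain of luteinizing hormone, shared a cluster with CGB5, CGB8, CGB2, CGB7 and CGB3, the neighbouring genes of the chorionic gonadotropin beta chain. It read 6.14, 6.13 and 6.31 in DU145 cells against 7.35, 7.19, 7.45 and 7.002 in CSC. CSC arrays were all above the DU145 arrays, array 4 the least. The difference was 1.05 (SE 0.12, adjusted p = 0.01904), the smallest of the called increases, and 3 of 7 fits with an array left out kept it, those without CSC array 1 or 4 or DU145 array 3, over differences of 0.99 to 1.14. It fell just below the fold limit, at 0.98 and 0.96, after median centring and after a further quantile normalization. The RefSeq window of CGB5 was identical in 96.0% of aligned columns to that of CGB3 and in 90.0% to that of CGB8. The share was 50.6% for LHB, 49.7% for CGB7 and 46.7% for CGB2. These windows lie mostly before the annotated starts, so the shares do not measure how alike the transcripts are. The transcripts were not compared, and no share for unrelated windows is given here.

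The largest of the 5 called decreases was in the cluster of SERTAD4, a SERTA-domain gene, and SERTAD4-AS1, the RNA on the opposite strand. It read 5.32, 5.96 and 6.48 in DU145 cells against 3.59, 3.15, 3.799 and 3.92 in CSC. All CSC arrays were below all DU145 arrays, and the DU145 arrays spread over more than 1 unit. The mean was 5.92 ± 0.58 (SD, n = 3) for DU145 and 3.61 ± 0.34 (SD, n = 4) for CSC, a difference of -2.31 (SE 0.31, adjusted p = 0.02632). The call held without CSC array 4 or DU145 array 1 and was lost without any other array, at differences of -2.61 to -2.03.

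BCL2A1, an anti-apoptotic member of the BCL2 family and a known NF-κB target, shared a cluster with its neighbour ST20. It read 5.62, 5.36 and 5.81 in DU145 cells against 4.21, 4.19, 3.902 and 3.88 in CSC. Both groups were tight and clearly apart. The difference was -1.55 (SE 0.14, adjusted p = 0.01025), and it stayed called except without DU145 array 1 (-1.54).

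NAV3 and NAV2 are neuron navigators, large proteins that bind microtubules and actin, on different chromosomes. Their cluster read 6.43, 6.21 and 7.14 in DU145 cells against 4.92, 5.08, 5.17 and 5.13 in CSC. The CSC arrays were close together and below all DU145 arrays, of which array 3 was highest. The difference was -1.52 (SE 0.22, adjusted p = 0.03015), and only the fit without DU145 array 3 (-1.25) kept the call, over differences of -1.71 to -1.25. NAV2 alone read 6.23, 6.302 and 6.83 in DU145 cells against 5.62, 5.39, 5.74 and 5.23 in CSC, lower on every CSC array, with a difference of -0.96 (SE 0.19, adjusted p = 0.06095) that was not called.

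GPR75, a cell-surface receptor, ASB3, a SOCS-box protein of ubiquitin ligases, and their readthrough GPR75-ASB3 shared 2 clusters. The called cluster read 6.31, 6.74 and 6.51 in DU145 cells against 5.34, 5.62, 5.38 and 5.55 in CSC. CSC arrays were lower throughout, with a difference of -1.05 (SE 0.13, adjusted p = 0.02155) that was kept without CSC array 1 or 4 only, over differences of -1.15 to -0.94. The other cluster read 6.97, 7.102 and 7.03 in DU145 cells against 6.54, 7.25, 7.102 and 7.54 in CSC, where CSC array 1 was lowest and CSC array 4 highest of all, and its difference was 0.08 (SE 0.23, adjusted p = 0.8729). In RefSeq the promoter windows of GPR75 and GPR75-ASB3 were identical, so the readthrough shares its start with GPR75.

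STXBP5, tomosyn, which binds the SNARE proteins of vesicle fusion, was listed with YAP1, the transcriptional effector of the Hippo pathway, on another chromosome. The shared cluster read 7.08, 7.62 and 7.495 in DU145 cells against 6.44, 6.33, 6.47 and 6.31 in CSC. CSC arrays were nearly equal and below the DU145 arrays, and the difference was -1.01 (SE 0.14, adjusted p = 0.02769), kept as a call only without DU145 array 1 (-1.17), over differences of -1.17 to -0.899. YAP1 alone read 9.46, 9.41 and 9.71 in DU145 cells against 9.45, 9.47, 9.47 and 9.54 in CSC, with overlapping groups and a difference of -0.05 (SE 0.09, adjusted p = 0.798).

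**Figure D2:**
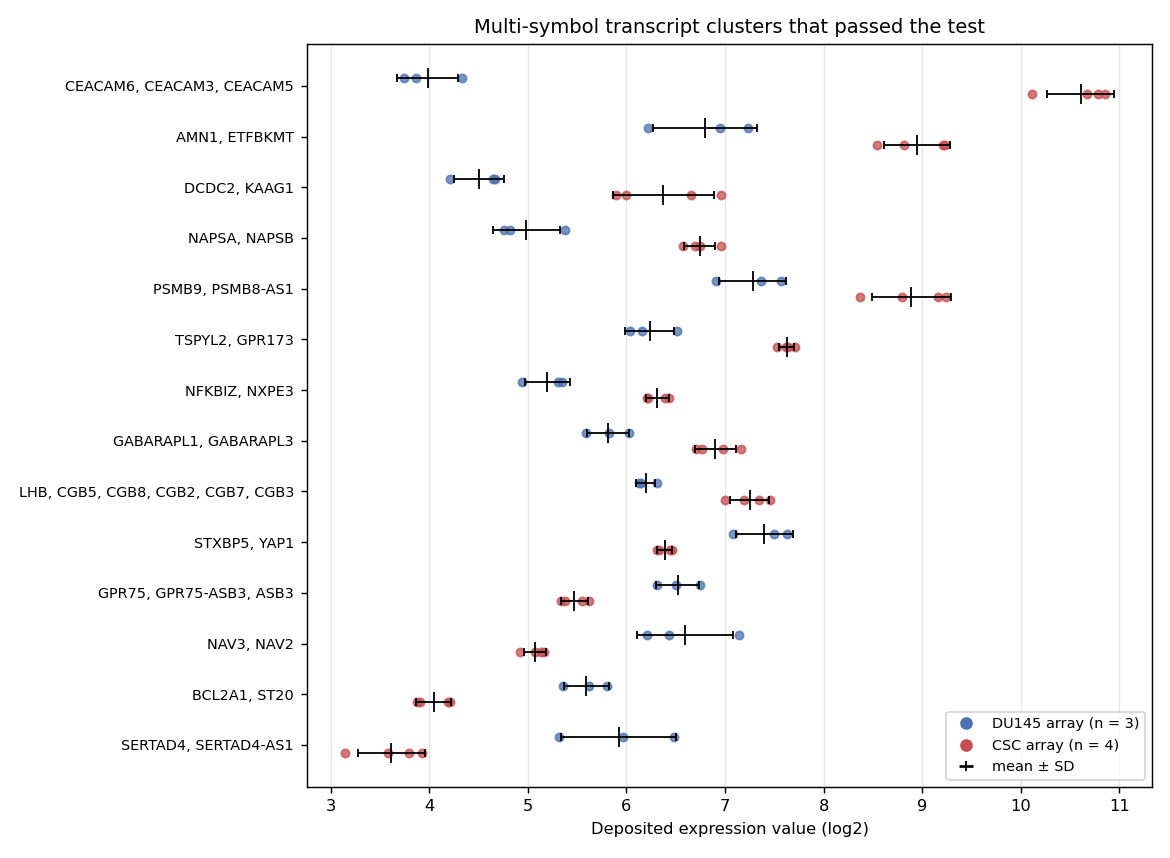
Points are the deposited log2 values (x axis) of the 3 DU145 arrays (blue) and 4 CSC arrays (red) for each of the 14 called clusters, with the mean and SD in black. In every cluster the groups are separate, with the widest gap for CEACAM6, CEACAM3, CEACAM5.

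Of the 4575 symbols, 774 also had a cluster of their own and 3801, or 83.1%, did not, so that for most genes named here the shared cluster is the only one read in this table. Both are given here for some of the named clusters. CLDN7, a tight junction protein, is listed with its overlapping neighbour ELP5, a subunit of the Elongator complex, in a cluster at 7.08, 7.47 and 7.67 in DU145 cells against 7.67, 7.91, 7.79 and 7.77 in CSC whose difference was 0.38 (SE 0.15, adjusted p = 0.2309). The cluster of CLDN7 alone read 4.67, 4.19 and 4.65 in DU145 cells against 8.301, 8.41, 8.46 and 7.82 in CSC, low on all DU145 arrays and high on all CSC arrays, with a difference of 3.75 (SE 0.199, adjusted p = 0.001358).

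The reverse was seen for LRRTM2, a synaptic adhesion protein whose gene lies within that of CTNNA1, αE-catenin of adherens junctions. Their shared cluster read 6.04, 6.02 and 6.02 in DU145 cells against 5.06, 5.25, 5.11 and 4.85 in CSC, with all CSC arrays lower and a difference of -0.96 (SE 0.102, adjusted p = 0.01486) that passed the p-value limit but not the limit on fold. CTNNA1 alone read 9.404, 9.64 and 9.42 in DU145 cells against 9.37, 9.44, 9.42 and 9.64 in CSC, with a difference of -0.02 (SE 0.099, adjusted p = 0.9242). KIF20A, a kinesin of cytokinesis, and CDC23, a subunit of the anaphase-promoting complex, shared a cluster at 9.695, 9.98 and 10.06 in DU145 cells against 8.07, 8.795, 9.17 and 9.33 in CSC, lower on every CSC array, with a difference of -1.07 (SE 0.31, adjusted p = 0.139). CDC23 alone had a difference of 0.11 (SE 0.09, adjusted p = 0.5433).

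**Figure D3:**
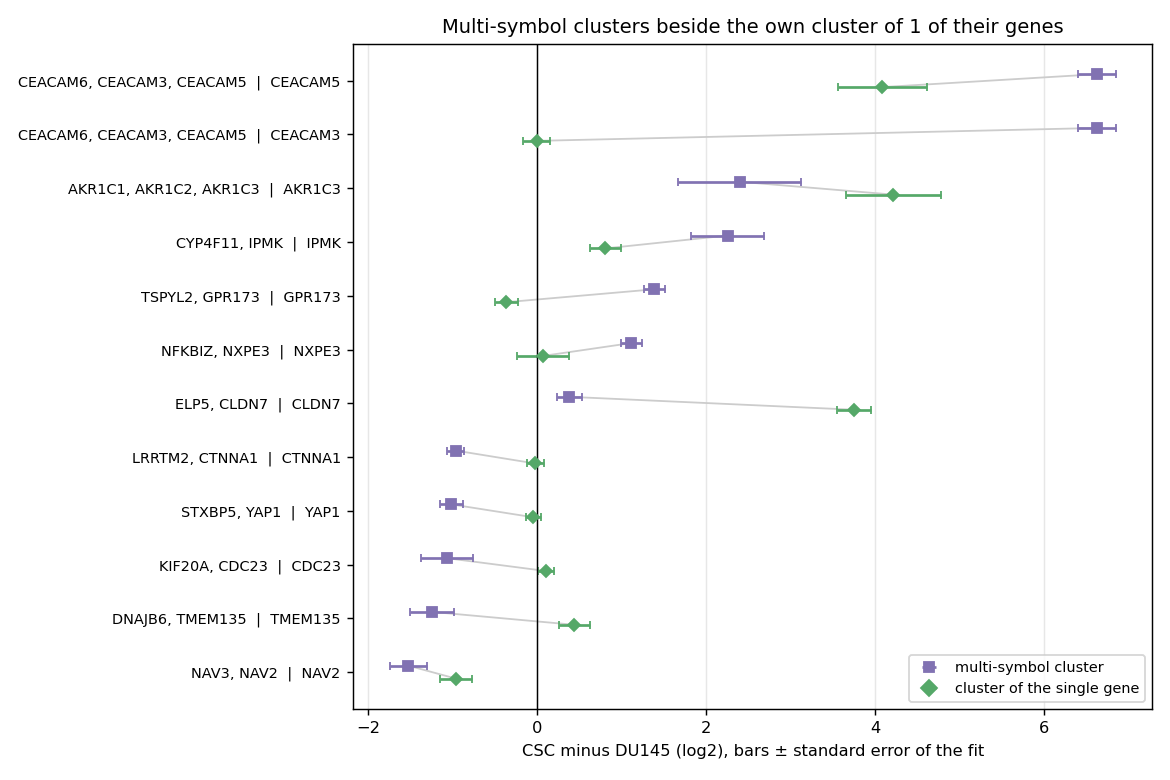
Differences between CSC and DU145 (x axis, log2, bars ± standard error of the fit) for shared clusters (squares) and for the cluster of 1 of their genes alone (diamonds). CEACAM5 and the shared CEACAM cluster are both above 4, CLDN7 is at 3.75 against 0.38 in the shared cluster, and YAP1, CTNNA1, NXPE3 and CEACAM3 alone lie near 0.

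There were 53 clusters of the 2408 with an absolute difference of at least 1 that were not called, 36 of them higher and 17 lower by value. Over all 22011 clusters there were 926, with 273 higher and 653 lower, and 572 of the 653 carried no symbol. Among the 14432 clusters with 1 symbol, 189 were higher and 64 lower. The SD between the CSC arrays of the 53 clusters had a median of 0.64, against 0.19 in the 14 called clusters and 0.19 over all clusters naming several genes. Among the 36, CSC array 4 was the highest CSC array in 17 and CSC array 1 in 12, while CSC array 1 and CSC array 3 were each the lowest in 14. The following paragraphs give those with separate groups and the largest differences.

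Aldo-keto reductases of the AKR1C group, which reduce steroids and prostaglandins, led these clusters. AKR1C2 and AKR1C1 read 4.58, 3.95 and 4.83 in DU145 cells against 6.47, 9.06, 8.91 and 9.76 in CSC. All CSC arrays were higher, and array 1 stood more than 2 units below the other CSC arrays. The difference was 4.096 (SE 0.78, adjusted p = 0.05682). It passed the test when CSC array 1 was left out (4.79). It also passed after median centring (4.02), after a further quantile normalization (4.08) and with array weights (4.44). A cluster of AKR1C1, AKR1C2 and AKR1C3 read 4.59, 3.66 and 2.68 in DU145 cells against 4.87, 5.87, 5.795 and 7.63 in CSC, with the same array highest and the same array lowest, and a difference of 2.39 (SE 0.73, adjusted p = 0.1565). AKR1C3 alone was called, at 4.21 (SE 0.56, adjusted p = 0.02632), and read 6.35, 8.201, 8.197 and 8.82 on the CSC arrays, again with array 1 lowest and array 4 highest. AKR1C4 and AKR1C3 had a cluster at 1.92, 1.92 and 2.18 in DU145 cells against 1.92, 1.83, 2.18 and 2.23 in CSC, near the bottom of the scale in both groups, with a difference of 0.03.

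Clusters of IFNA, KLRC and SAA genes also had differences above 2 by value, and none of them passed the test. IFNA17, IFNA10, IFNA4 and IFNA7, type I interferons, read 1.35, 1.53 and 2.08 in DU145 cells against 6.05, 4.78, 2.62 and 3.33 in CSC, from a low level in DU145 cells to a wide range in CSC with array 1 highest, a difference of 2.54 (SE 0.82, adjusted p = 0.1702). The same genes in another cluster differed by 0.41. KLRC3 and KLRC2, receptors of natural killer cells, read 1.81, 1.31 and 1.64 in DU145 cells against 3.001, 3.34, 3.91 and 5.63 in CSC, a difference of 2.38 (SE 0.62, adjusted p = 0.1121). SAA1 and SAA2, serum amyloid A proteins, read 2.93, 2.55 and 2.56 in DU145 cells against 3.62, 5.11, 4.396 and 6.79 in CSC, with array 4 highest and a difference of 2.302 (SE 0.71, adjusted p = 0.1597), while a second SAA1 and SAA2 cluster differed by 0.54. Of the 4 leukocyte markers, none of which was called, LYZ was higher by value on all CSC arrays, with array 3 highest and array 1 lowest. CD68, a marker of macrophages, was also higher by value on all of them, at 9.38 ± 0.43 (SD, n = 4) against 8.47 ± 0.36 (SD, n = 3, adjusted p = 0.1542). CD3E, of T cells, overlapped between the groups with a difference of 0.23 (adjusted p = 0.4721), and PTPRC, which defines leukocytes, read 2.27 ± 0.03 (SD, n = 4) in CSC and 2.20 ± 0.10 (SD, n = 3) in DU145 cells. The part of other cells in these values was not tested.

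Further increases that did not pass were in clusters of genes with distinct names and in that of SOD2 with its overlapping transcript. CYP4F11, a fatty acid hydroxylase, listed with IPMK, an inositol phosphate kinase on another chromosome, read 5.30, 5.61 and 6.46 in DU145 cells against 7.09, 8.46, 8.49 and 8.14 in CSC, a difference of 2.25 (SE 0.43, adjusted p = 0.05755). IPMK alone differed by 0.81 (SE 0.18, adjusted p = 0.08512), also with separate groups. ACSM3, a medium-chain acyl-CoA synthetase, and ERI2, an overlapping exonuclease gene, read 4.45, 4.12 and 4.94 in DU145 cells against 5.51, 6.54, 6.19 and 6.96 in CSC, a difference of 1.79 (SE 0.37, adjusted p = 0.06732). HSPB8, a small heat shock protein, with PDAP1 of another chromosome, read 4.51, 4.33 and 4.07 in DU145 cells against 5.45, 6.54, 5.48 and 6.19 in CSC, a difference of 1.61 (SE 0.301, adjusted p = 0.0552), and PDAP1 alone differed by 0.31. SOD2, mitochondrial superoxide dismutase, with SOD2-OT1 read 7.39, 8.18 and 8.21 in DU145 cells against 9.07, 9.001, 9.43 and 9.73 in CSC. CSC arrays were higher in all of these, and the difference for SOD2 was 1.38 (SE 0.27, adjusted p = 0.06079).

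Others belong to the same range. C2orf15 and MRPL30, a mitochondrial ribosomal protein, differed by 1.71 (SE 0.41, adjusted p = 0.09518). REXO1L1P and REXO1L2P, exonuclease-like pseudogenes, differed by 1.58 (SE 0.38, adjusted p = 0.09793). CLIC2, an intracellular chloride channel protein, with TWF1, an actin-binding twinfilin, differed by 1.47 (SE 0.28, adjusted p = 0.05859), and TWF1 alone by 0.18. All had separate groups. NR4A2, an orphan nuclear receptor, with FLJ46875 differed by 1.35 (SE 0.299, adjusted p = 0.07899).

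Of the 17 decreases of at least 1 that were not called, 14 were in clusters of family members or copies (genes sharing a symbol stem), a class that held 897 of the 2408 clusters. GOLGA8B and GOLGA8A, golgin-like genes, had 2 clusters. In one they read 8.69, 9.03 and 9.24 in DU145 cells against 7.35, 7.03, 6.93 and 8.13 in CSC, with all CSC arrays lower and array 4 highest of them, a difference of -1.63 (SE 0.31, adjusted p = 0.05776). In the other they read 7.81, 7.03 and 7.81 in DU145 cells against 5.60, 6.36, 5.73 and 6.67 in CSC, again with separate groups and CSC array 4 highest, a difference of -1.46 (SE 0.33, adjusted p = 0.0839). GOLGA6L9, GOLGA6L5P, GOLGA6L10 and GOLGA6L3P read 4.88, 3.71 and 5.23 in DU145 cells against 2.97, 1.29, 2.46 and 2.74 in CSC, a difference of -2.24 (SE 0.52, adjusted p = 0.08907).

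NXF2 and NXF2B, mRNA export factors of the testis, read 5.71, 4.70 and 5.12 in DU145 cells against 4.24, 3.45, 3.29 and 3.68 in CSC, a difference of -1.51 (SE 0.31, adjusted p = 0.06712). TUBA3E, TUBA3D and TUBA3C, alpha-tubulins of the testis, read 5.69, 6.03 and 5.68 in DU145 cells against 4.13, 5.01, 2.998 and 5.28 in CSC, with CSC array 3 far below the rest and a difference of -1.45 (SE 0.55, adjusted p = 0.2218). FOXD4L3, FOXD4L6, FOXD4, FOXD4L1, FOXD4L2, FOXD4L4 and FOXD4L5, forkhead factors, read 7.104, 6.34 and 6.74 in DU145 cells against 3.696, 5.91, 5.94 and 5.91 in CSC, a difference of -1.36 (SE 0.61, adjusted p = 0.2777) to which CSC array 1 contributed most, and -0.81 without it. HSD17B7P2, HSD17B7, DDR2, LINC01347 and LOC100288069 differed by -1.23 (SE 0.23, adjusted p = 0.0559), while DDR2, a collagen receptor, alone differed by -0.32.

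Further decreases joined genes that are not relatives. DNAJB6, a chaperone, with TMEM135 of another chromosome read 7.48, 8.27 and 8.196 in DU145 cells against 6.36, 7.18, 6.75 and 6.68 in CSC, lower on every CSC array, a difference of -1.24 (SE 0.26, adjusted p = 0.0715), against 0.44 for TMEM135 alone. TAGLN, the actin-binding protein transgelin, with PCSK7, a proprotein convertase, read 5.78, 7.05 and 6.404 in DU145 cells against 5.68, 5.48, 5.38 and 5.24 in CSC, a difference of -0.97 (SE 0.29, adjusted p = 0.1535), against 0.09 for PCSK7 alone. KHDC4, SCARNA4 and SNORA80E differed by -1.03 (SE 0.21, adjusted p = 0.06819).

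By composition, 1027 clusters joined genes with distinct names, 897 members of a family or copies (sharing a symbol stem), 200 a small RNA, 139 an uncharacterized gene, 115 an antisense RNA and 30 a readthrough gene. Called clusters numbered 6 (0.584%), 5 (0.557%), 0, 0, 2 (1.74%) and 1 (3.33%) in that order, against 1.3% of all clusters. The SD between arrays of a group had a median of 0.27 in families and copies, against 0.19 in clusters of distinct names. The median difference ran only from 0.06 in clusters with a small RNA to 0.12 in those of distinct names.

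The gene table placed the genes of 779 clusters as overlapping and of 875 as neighbours within 100 kb. Those of 319 lay further apart on 1 chromosome, those of 376 on different chromosomes, and 59 could not be placed. In these 5 kinds 5 (0.642%), 6 (0.686%), 0, 3 (0.798%) and 0 clusters were called, against 1.3% of all clusters. A cluster named 2 genes in 1956 cases, 3 in 296 and more in 156. The longest entry had 15 symbols, PCDHA12, PCDHA9, PCDHA3, PCDHA11, PCDHA7, PCDHA6, PCDHA10, PCDHA13, PCDHA4, PCDHA8, PCDHAC2, PCDHA1, PCDHAC1, PCDHA2 and PCDHA5. These alpha-protocadherins share their last exons, and the cluster read 5.39, 4.93 and 5.07 in DU145 cells against 5.45, 5.65, 5.62 and 5.39 in CSC, with overlapping values and a difference of 0.40 (SE 0.13, adjusted p = 0.1777).

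**Figure D4:**
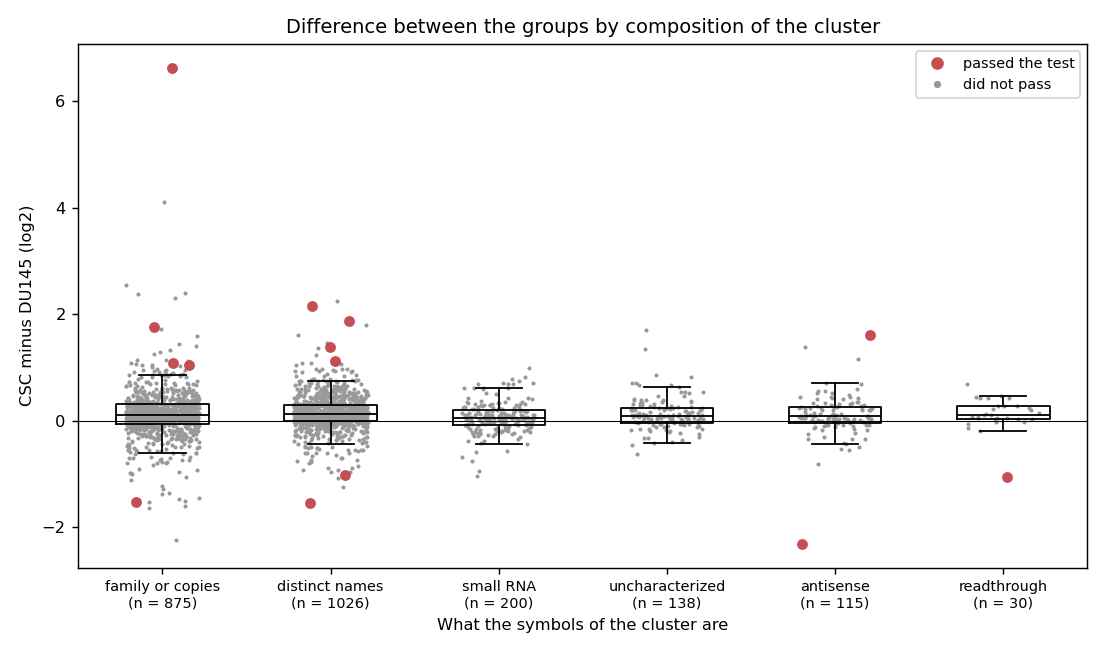
Differences between CSC and DU145 (y axis, log2) for clusters that name several genes, grouped by what their symbols are (those with a Y-linked symbol or XIST are left out). Boxes show the median and quartiles, whiskers the range without outlying points, and called clusters are red. All medians lie between 0.06 and 0.12, and no cluster with a small RNA or an uncharacterized gene is red.

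For 210 sets of symbols, more than 1 cluster carried the same set, 422 clusters in all. Over the 214 pairs of such clusters the median absolute gap between their differences was 0.24 and the widest 2.14 (the IFNA clusters). The 2 clusters of a pair also stood at different mean levels, with a median gap of 0.95 and a widest of 6.55. In 44 pairs the levels were more than 2 apart. Whether both clusters of a pair read the same gene was not tested.

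Small RNAs were named in 200 clusters, 111 with a microRNA and 87 with a small nucleolar or Cajal body RNA (some with both) and 5 with neither. These arrays read the long host transcript as well, and mature microRNAs are shorter than its probes, so the values say nothing of the mature microRNA. None of the 200 clusters was called, against 1.3% of all clusters, and 2 (1%) passed the p-value limit alone, against 2.04%.

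MIR503HG, the host gene of miR-503, with MIR503 read 7.08, 6.87 and 6.82 in DU145 cells against 6.14, 6.26, 6.41 and 6.18 in CSC. All CSC arrays were lower and the groups were tight. The difference was -0.68 (SE 0.102, adjusted p = 0.03375). SMC4, a condensin subunit whose gene carries MIR15B and MIR16-2, read 9.13, 9.37 and 9.43 in DU145 cells against 8.57, 8.84, 8.56 and 8.92 in CSC for the cluster of all 3 symbols, a difference of -0.59 (SE 0.13, adjusted p = 0.07899) with separate groups. DLEU2, whose gene hosts MIR15A and MIR16-1, in a cluster with both and DLEU2L read 4.42, 3.59 and 5.04 in DU145 cells against 3.48, 3.61, 3.77 and 3.501 in CSC, where DU145 array 2 lay among the CSC arrays, a difference of -0.76 (SE 0.32, adjusted p = 0.2617). These 3 clusters are the hosts of the microRNAs with the shared seed bases shown above. All 3 were lower in CSC by value, and 1 passed the p-value limit.

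COXFA4L3 (a relative of a cytochrome oxidase subunit) with MIR147B read 7.23, 7.14 and 6.88 in DU145 cells against 8.21, 8.21, 7.52 and 8.35 in CSC. All CSC arrays were higher, array 3 the least, and the difference was 0.99 (SE 0.22, adjusted p = 0.07771). TTLL10, MIR200A, MIR200B and MIR429, at the locus of microRNAs known for keeping epithelial cells epithelial, read 5.903, 5.99 and 5.83 in DU145 cells against 5.98, 5.93, 5.93 and 5.93 in CSC, a difference of 0.03. VMP1, MIR21 and CLTC read 9.57, 9.54 and 9.89 in DU145 cells against 9.97, 9.998, 9.91 and 10.07 in CSC, a difference of 0.32 (SE 0.103, adjusted p = 0.1711), and CLTC, clathrin heavy chain, alone differed by -0.04. MIR31 and MIR31HG differed by -0.23 (SE 0.19, adjusted p = 0.529), and MIR17HG with MIR17, MIR19A, MIR19B1, MIR20A, MIR92A1 and MIR18A by -0.14 (SE 0.13, adjusted p = 0.5668), with overlapping groups in both.

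**Figure D5:**
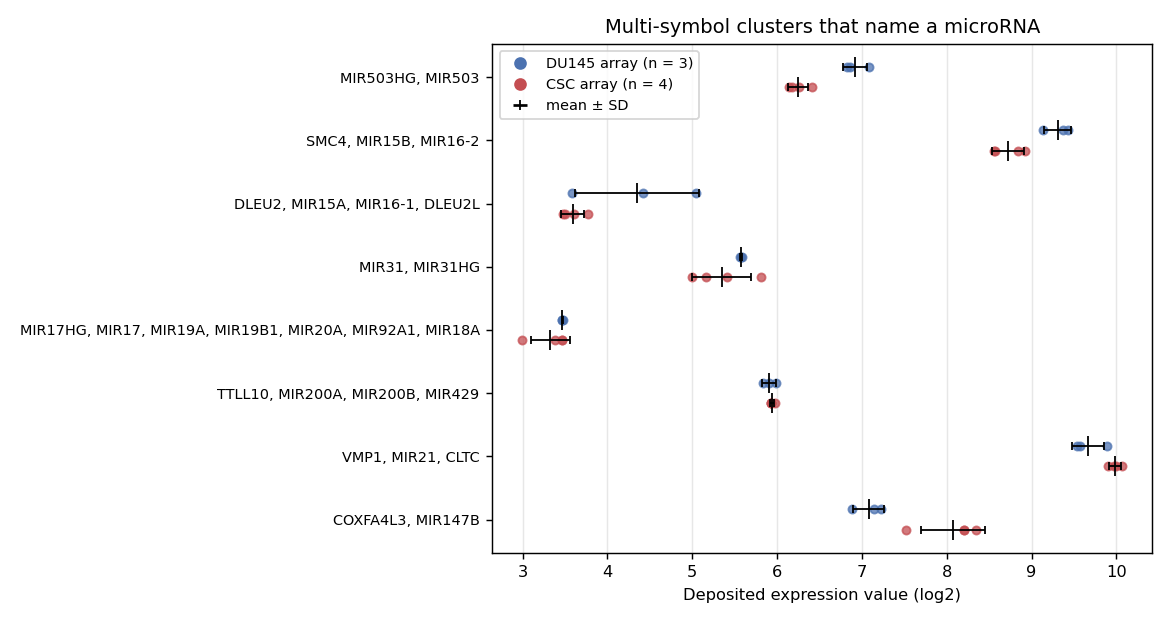
Deposited log2 values (x axis) of 8 clusters that name a microRNA, for the 3 DU145 arrays (blue) and 4 CSC arrays (red), with mean and SD in black. The clusters with MIR503 and with MIR15B and MIR16-2 are lower on all CSC arrays, the cluster with MIR147B is higher, and the groups overlap in the cluster of the MIR200 locus.

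Small nucleolar RNAs guide the modification of ribosomal RNA and lie in introns of host genes. SNHG11 with SNORA71E and SNORA60 read 5.71, 5.89 and 6.11 in DU145 cells against 6.56, 6.51, 6.77 and 6.56 in CSC, higher on all CSC arrays, a difference of 0.69 (SE 0.12, adjusted p = 0.04421), the only one of the 87 to pass the p-value limit. SNHG32 with SNORD52 differed by 0.79 (SE 0.15, adjusted p = 0.05605), RAB30 with SNORA70E by 0.75 (SE 0.19, adjusted p = 0.1095) and EIF1AX with SCARNA9L by 0.71 (SE 0.15, adjusted p = 0.06922), all with separate groups. SNORA44, SNORA16A, SNORA61 and SNHG12 read 8.09, 8.74 and 8.75 in DU145 cells against 10.56, 9.11, 9.19 and 8.495 in CSC, where CSC array 1 stood more than 1 unit above the rest, a difference of 0.82 (SE 0.49, adjusted p = 0.3962).

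Between the called clusters and the rest lay 25 that passed the p-value limit with a difference below 1. HLA-B and HLA-C, classical MHC class I chains, read 10.85, 10.96 and 10.88 in DU145 cells against 11.49, 11.78, 12.04 and 11.82 in CSC, higher on all CSC arrays, a difference of 0.88 (SE 0.13, adjusted p = 0.03322). PRODH, proline dehydrogenase, with PRODHLP differed by 0.97 (SE 0.102, adjusted p = 0.01486), and TRIM16 with TRIM16L by 0.94 (SE 0.17, adjusted p = 0.04983). FGF2, basic fibroblast growth factor, shared 2 clusters with NUDT6, its antisense gene. One read 6.81, 7.07 and 6.92 in DU145 cells against 5.803, 5.83, 6.15 and 6.25 in CSC, a difference of -0.92 (SE 0.14, adjusted p = 0.0347), and the other differed by -0.55 with adjusted p = 0.3335. NCAPG, a condensin subunit, with LCORL read 9.13, 9.295 and 9.23 in DU145 cells against 8.18, 8.68, 8.42 and 8.53 in CSC, lower on all CSC arrays, a difference of -0.76 (SE 0.13, adjusted p = 0.04175).

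TAPBPL, a chaperone of MHC class I, with VAMP1 differed by 0.66 (SE 0.09, adjusted p = 0.02794), NDUFS5 with RPL10 by 0.74 (SE 0.09, adjusted p = 0.02347), and NTHL1, a DNA repair glycosylase, with TSC2, tuberin, by 0.88 (SE 0.11, adjusted p = 0.02401). PARD6A, a cell polarity protein, with ACD, a telomere protein, had the smallest of the 25 differences, 0.45 (SE 0.07, adjusted p = 0.03948). ETFA with TYRO3P and TYRO3, a receptor kinase, differed by 0.87 (SE 0.09, adjusted p = 0.01575). CFDP1 with MILR1 differed by 0.91 (SE 0.11, adjusted p = 0.02245), MPPE1 with GNAL by 0.91 (SE 0.14, adjusted p = 0.03767) and ANKRD46 with GAPDHP62 by 0.94 (SE 0.14, adjusted p = 0.03015). NMT2 with PPIAP30 differed by -0.74 (SE 0.103, adjusted p = 0.02784) and RNF216P1 with XKR8 and RBAK by -0.89 (SE 0.15, adjusted p = 0.04658). The groups were separate in all of them.

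Gene lists were read across these clusters, each by its count, against 1.3% of all clusters called and 2.04% past the p-value limit. In antigen presentation, 1 of 7 clusters was called (PSMB9, PSMB8-AS1) and 1 more passed the p-value limit (HLA-B, HLA-C), with a median difference of 0.53 against 0.11 over all clusters naming several genes. HLA-DOB with TAP2 differed by 0.59 (SE 0.21, adjusted p = 0.2094) and TAP2, the peptide transporter, alone by -0.03. HLA-DRB1 with HLA-DRB6, HLA-DRB4, HLA-DRB3 and HLA-DRB5, class II chains, differed by -0.01 (SE 0.09, adjusted p = 0.9494). In the CEACAM and PSG list 1 of 8 was called, against the same 1.3%, and PSG6 with PSG9, pregnancy-specific glycoproteins, differed by 1.25 (SE 0.44, adjusted p = 0.2014).

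The other 21 lists held no called cluster. By value, all 4 clusters of aldo-keto reductases were positive with a median of 1.61, the 16 of interferon and antiviral genes had a median of 0.46 and the 28 of heat shock proteins and chaperones 0.32. GBP7 with GBP2, interferon-induced GTPases, read 3.68, 3.68 and 3.86 in DU145 cells against 4.798, 4.601, 4.29 and 5.61 in CSC, a difference of 1.08 (SE 0.301, adjusted p = 0.1298), and IL10RB with IFNAR2, cytokine receptor chains, differed by 0.86 (SE 0.199, adjusted p = 0.08874). LRRC28 with HSP90B1 and HSP90B2P, of the endoplasmic reticulum chaperone, read 6.95, 6.73 and 7.37 in DU145 cells against 7.89, 8.36, 8.13 and 7.895 in CSC, a difference of 1.05 (SE 0.19, adjusted p = 0.05314) that stood just above the limit. In none of these 3 lists did a cluster pass the p-value limit.

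The 28 clusters of mitosis genes had a median of -0.01, with 1 passing the p-value limit, lower in CSC (NCAPG, LCORL). The 5 of junction genes had a median of 0.36, with CLDN2 and RIPPLY1 at 0.36 (SE 0.13, adjusted p = 0.2232). The 7 of histones had a median of 0.29, with H2BC18, H3C13 and H2BP1 at 1.298 (SE 0.401, adjusted p = 0.1593), and the 6 of metallothioneins, metal-binding proteins, 0.22. MT1M with MT1P3 differed by 1.32 (SE 0.37, adjusted p = 0.1332), while MT1E with MT1M and MT1JP differed by -0.31 (SE 0.15, adjusted p = 0.3012). Clusters of 20 keratins, 26 keratin-associated proteins and 17 tubulins and actins had medians of 0.04, 0.01 and 0.03.

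The 35 of conjugating and oxidizing enzymes had a median of 0.16, and the 5 of serpins and 2 of S100 genes 0.18 and 0.22. Cancer/testis antigens (19 clusters) had a median of 0.10, protocadherins (9) 0.18, ribosomal proteins (40) 0.04 and glycolysis genes (3) 0.15. Families of segmental duplications (32) had a median of 0.08, zinc finger genes (148) 0.08, olfactory receptors (62) 0.11 and immunoglobulin and T cell receptor genes (7) 0.12. Of these, 1 cluster of ribosomal proteins (NDUFS5, RPL10) and 1 of zinc finger genes (ZNF204P, ZNF184, 0.76 (SE 0.09, adjusted p = 0.02211)) passed the p-value limit. Among the olfactory receptors, OR13C2 with OR13C5 and OR13C9 at 1.38, 1.74 and 0.98 in DU145 cells against 2.43, 2.21, 2.40 and 2.26 in CSC had a difference of 0.96 (SE 0.18, adjusted p = 0.05509).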

How the data were processed

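The deposited table held 1 log2 value for each of 7 arrays and 22011 transcript clusters. Per the study's methods, the authors obtained these log2 values in oneChannelGUI, where Robust Multichip Average summarized the probes of a gene after sketch-quantile normalization. A summary of this kind joins all probes of a cluster into 1 value, whichever gene they match. The build of the array's design is not given in the sources used here. Detection p-values and exon-level values were not analysed here. The study states 3 replicates per condition. All 4 CSC arrays were kept.

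Gene symbols came from the platform annotation, and clusters whose entry held at least 2 symbols were kept. Composition classes were assigned from the symbols, and the relative position of genes from the RefSeq gene table (GRCh38.p14), with neighbours within 100 kb. All 4575 symbols were found in it. In 16 clusters the symbols were 1 gene by that table. Clusters with a Y-linked symbol or XIST (24) were counted but not named. The members were defined by the symbol entry, but the gene lists, the rules and the tests were chosen with earlier results of these data known.

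All 7 arrays entered 1 linear model in limma 3.58.1 (R 4.3.3) whose single term was the group, with moderated variances. Adjusted p-values are Benjamini-Hochberg values from limma over all clusters. Called clusters had adjusted p ≤ 0.05 and differed by 1 or more on the log2 scale. Errors are SDs or standard errors of the model. The fit was tested on simulated data. Precision is limited by how few arrays there were. The text names all called clusters, the 12 largest increases and 12 largest decreases among clusters that were not called and whose groups did not overlap, up to 4 clusters for each composition class and each of 23 gene lists, and the own clusters of their genes. Other clusters that passed the p-value limit, pairs of clusters with the same symbols and the host clusters of small RNAs were named after their values were seen. Same-numbered arrays of the groups did not deviate together (r = 0.07, -0.01 and 0.05), and the arrays were treated as unpaired. Alternatives covered thresholds, filters on dim clusters, centring, normalization, moderation, array weights, an unpaired t-test without moderation, the definition of the clusters, a replicate block and each array left out in turn. For its arrays the paper states the moderated linear model, not this t-test. Promoter windows were aligned globally.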

Additional observations from a re-analysis of the deposited data

Results flagged for a closer look

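Within the CSC group, 1 value stood far from the others of its group. The cluster of FOXD4L3, FOXD4L6, FOXD4, FOXD4L1, FOXD4L2, FOXD4L4 and FOXD4L5 read 3.696 on CSC array 1, while the other CSC arrays lay between 5.911 and 5.935, so that the gap took 0.989 of the whole range of the group. Dixon's criterion was applied to 38 named clusters, and chance alone flags about 1 in 20 groups.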

How the results depend on the processing

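The count of 14 called clusters (9 higher and 5 lower) depended on the settings. The 14 called clusters and the 12 largest increases and 12 largest decreases with separate groups that were not called kept their direction in every refit (centring, normalization, moderation, weights, replicate block and each array left out). With 1 array left out, 4 other named clusters with differences near 0 changed sign, those of ASB3, GPR75-ASB3 and GPR75 (-0.07 to 0.27), TTLL10 and its microRNAs (-0.005 to 0.08), AKR1C4 and AKR1C3 (-0.03 to 0.12) and HLA-DRB1 with its relatives (-0.07 to 0.05). The count of called clusters was 56 (41 and 15) at an unadjusted p of 0.05, 39 (28 and 11) without a fold limit, 3 (2 and 1) with a log2 limit of 2, 22 (16 and 6) among clusters at or above the median level and 27 (18 and 9) among those with a mean of at least 4. Over the whole array, 286 clusters were called in the main fit, 450 without a fold limit, and 393 and 412 with these filters on level. Whole-array counts are not given here for the unadjusted p and the log2 limit of 2. Among clusters naming several genes it was 25 (14 and 11) after median centring, 27 (16 and 11) after a further quantile normalization and 31 (22 and 9) with array weights. By an unpaired t-test without moderation it was 2 (2 and 0). The whole array moved as well, to 413, 430, 495 and 43 called clusters in these settings, in that order. By direction, 159 were higher and 127 lower over the whole array in the main fit, and 192 and 221 after median centring. Of the 14, 13 remained called after centring and after quantile normalization, the exception being the LHB and CGB cluster, and all 14 with array weights. Of the 24 largest differences that were not called, 11 became called after median centring, 11 after quantile normalization and 10 with array weights. The clusters of AKR1C2 with AKR1C1, CYP4F11 with IPMK, HSPB8 with PDAP1, CLIC2 with TWF1 and SOD2 with SOD2-OT1 were among them each time. Intensity trend with robust moderation gave a count of 14, clusters with a symbol only 19 (13 and 6), exactly 2 symbols 11, and merging symbols of 1 gene 14. The trend fit called 304 clusters of the whole array, and the fit on clusters with a symbol called 262 of those. Leaving out 1 array gave counts of 3 to 16, of 2 to 14 for higher and of 1 to 6 for lower clusters, while the whole array had 56 to 279 called. The count among clusters naming several genes was 16 (14 and 2) without CSC array 1, 5 (3 and 2) without CSC array 2, 7 (6 and 1) without CSC array 3, 4 (2 and 2) without DU145 array 1, 3 (2 and 1) without DU145 array 2 and 10 (8 and 2) without DU145 array 3. With the replicate block, a fit of 3 pairs that drops CSC array 4, the counts were 0, 0 and 0, as over all clusters. The causes were not tested. Protein identity as a rule for families was not run. Depth of signal over background was not analysed here, and 36.7% of the family clusters lay below a level of 4.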
